A study of Mus musculus with 21 samples.

Results

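The genes described here are 49 genes of ribosome biogenesis and the nucleolus, taken by symbol from the 47729 gene identifiers of the count files. All 49 matched 1 identifier, and all 49 passed the filter on low counts, with a lowest value in any library of 8.24 CPM (the count scaled to a common library size). They were measured by mRNA sequencing in germinal centre B cells of C57BL/6 mice in 4 groups of 4 libraries: light zone (LZ) cKO, LZ control, dark zone (DZ) cKO and DZ control. The cKO mice were CD79acre/+Ptbp1fl/fl and the controls CD79a+/+Ptbp1fl/fl. Both genotypes therefore carried floxed Ptbp1, which encodes an RNA-binding regulator of splicing, and only the cKO mice carried Cre, at the B-lineage gene Cd79a, so that carrying Cre and losing PTBP1 cannot be told apart. Spleen cells were taken 7 days after NP-KLH in alum and depleted with antibodies to IgD, CD3e, Gr1 and Ter119. They came in 8 pools of 3 to 5 mice of 1 genotype and 1 sex, and each pool gave 1 LZ and 1 DZ library. A replicate number stands for a sort day that both genotypes shared (days 1 and 2 males, days 3 and 4 females). A further 5 libraries mapped PTBP1 on RNA by iCLIP, which marks crosslinked positions, in splenic B cells of female C57BL/6 mice cultured with LPS for 48 hours.

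Ribosomes are built in the nucleolus, where RNA polymerase I transcribes the precursor of the large ribosomal RNAs. Box C/D and box H/ACA small nucleolar ribonucleoproteins (snoRNPs) guide methylation and pseudouridylation of that precursor, a large processome folds and cuts its small subunit part, and assembly factors shape the large subunit. Many of these genes are known targets of the transcription factor MYC, which germinal centre B cells induce on positive selection in the light zone. The 49 genes were divided by known role into 6 RNA polymerase I factors, 4 box C/D and 5 box H/ACA snoRNP genes, 9 genes of the small subunit processome, 5 of late small subunit maturation, 15 of large subunit assembly and 5 multifunctional nucleolar proteins.

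The reference promoter sequences of 6 of these genes are shown because the results below turn on them or as examples that hold both an E-box and an ETS core. Nop56 was lower in LZ cKO cells and, in controls, higher in the LZ; Pes1 was higher in the LZ in both genotypes; Gar1 and Nhp2 were lower in LZ cKO cells with sort day in the model; Nop2 and Rrn3 hold both motifs, as do Ltv1 and Tsr1, which are not shown. Each runs 5′ to 3′ from 90 bases before the start used in the RefSeq promoter table (GRCm38.p6) to the 30th base of the annotated gene. That start is the 5′ end of the annotated gene for Pes1, Nhp2, Nop2 and Rrn3 and lies 45 bases inside it for Nop56 and 11 for Gar1, whose windows are shorter (75 and 109 bases, against 120). Capitals mark CACGTG, the core E-box that MYC can bind, and CCGGAAG or its reverse complement CTTCCGG, the core bound by many ETS factors.
Nop56: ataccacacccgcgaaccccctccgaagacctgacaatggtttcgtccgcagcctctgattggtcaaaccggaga
Pes1: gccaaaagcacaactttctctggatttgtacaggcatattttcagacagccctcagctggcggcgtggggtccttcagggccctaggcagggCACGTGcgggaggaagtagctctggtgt
Gar1: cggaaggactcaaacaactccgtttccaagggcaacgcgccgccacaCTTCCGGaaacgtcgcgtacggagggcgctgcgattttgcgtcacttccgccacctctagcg
Nhp2: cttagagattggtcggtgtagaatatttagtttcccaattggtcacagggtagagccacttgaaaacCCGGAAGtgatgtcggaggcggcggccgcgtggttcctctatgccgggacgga
Nop2: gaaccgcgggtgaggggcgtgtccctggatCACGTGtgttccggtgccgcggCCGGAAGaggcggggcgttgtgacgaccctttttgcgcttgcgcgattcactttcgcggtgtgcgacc
Rrn3: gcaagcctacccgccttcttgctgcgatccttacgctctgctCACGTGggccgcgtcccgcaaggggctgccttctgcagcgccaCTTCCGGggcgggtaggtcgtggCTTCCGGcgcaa

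These windows lie at chr2:130274322-130274396 (plus strand, Nop56), chr11:3963885-3964004 (plus, Pes1), chr3:129831378-129831486 (minus, Gar1), chr11:51619683-51619802 (plus, Nhp2), chr6:125131793-125131912 (plus, Nop2) and chr16:13780609-13780728 (plus, Rrn3). No 2 of the matches in these promoters overlap. In Pes1 the E-box begins at the third base of the gene, and in Nop2 it begins 60 bases before the start, with CCGGAAG 38 bases before it. RefSeq windows, of 250 bases before and 50 after the start, were found for 42 of the 49 genes, and for 30 of them that start is the 5′ end of the annotated gene. They held CACGTG in 10 of the 42 (23.8%), against 11.5% of the 10430 genes tested with a window and 8.09% of all 27025 windows. CCGGAAG on either strand was in 15 of the 42 (35.7%), against 20.1% of the genes tested and 9.93% of all windows. TATAAA, the core TATA box, on either strand was in 3 (7.14%), against 8.91% of the genes tested and 15.7% of all windows. These shares describe letters in fixed windows and carry no test. Within them, CACGTG was present for the called genes Pes1 and Mybbp1a and CCGGAAG for the called gene Ppan, while Nop56, Gnl3, Rrp1b, Polr1a and Rrp9 held neither.

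The libraries held 26823882 to 34240096 counts on genes, and mitochondrial genes took 0.435% to 1.57% of them. Ptbp1 was 94.4, 96.2, 121 and 82.5 CPM in LZ cKO libraries, against 367, 353, 419.8 and 388 CPM in LZ controls, and 114, 100.1, 107 and 92.1 CPM in DZ cKO libraries, against 416, 424, 448 and 486 CPM in DZ controls. Every cKO library was below every control library. The log2 fold change was -1.95 ± 0.11 (SE) in the LZ and -2.10 ± 0.11 in the DZ (edgeR adjusted p = 1.83e-07 and 6.67e-08). Ptbp2, the neural paralogue that PTBP1 represses, was higher in cKO cells (3.60 ± 0.22 in the LZ and 3.75 ± 0.22 in the DZ, adjusted p = 2.05e-07 and 1.16e-07). Cd79a, which carries the Cre, was lower in them (-0.98 ± 0.13 and -1.27 ± 0.13, adjusted p = 0.00151 and 9.97e-05). Of 8 light zone markers, 7 were called higher in the LZ in each genotype, and of 7 dark zone markers 6 were called lower in the LZ in cKO cells and 5 in controls. Germinal centre B markers summed to 5765 to 6867 CPM in all libraries.

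Part of the ribosome biogenesis genes had higher CPM in light zone than in dark zone libraries, in controls and, for fewer genes, in cKO mice. A gene was called where edgeR's quasi-likelihood test gave a Benjamini-Hochberg adjusted p under 0.05 over the 15789 genes tested. Of the 49 genes, 5 were called higher in the LZ of cKO mice and 7 in the LZ of control mice, and none lower in either. Over all genes tested, 9.09% were called in cKO cells (4.91% higher and 4.18% lower in the LZ) and 7.49% in controls (4.16% higher and 3.33% lower), while the called genes were 10.2% and 14.3% of the 49. In cKO cells the share of the 49 was thus near that of all genes called in either direction. The median log2 fold change of the 49 was 0.08 in cKO cells and 0.22 in controls, against -0.000313 and -0.00026 over all genes tested. The log2 fold change was above 0 for 37 of the 49 in cKO cells and for 41 in controls, against 49.9% of all genes tested in each. Without LZ cKO replicate 3 the cKO median was 0.0212, without LZ cKO replicate 4 it was 0.131 and without DZ cKO replicate 3 it was 0.167. In bulk samples, fewer cells of a type and less RNA per cell cannot be told apart.

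Pool pairing bears on these counts, since LZ and DZ libraries of the same number came from the same mice. With the pool as a block, 8 genes were called higher in the LZ of cKO mice and 17 in the LZ of controls, against backgrounds of 17.8% and 13.8% of all genes (8.8% and 7.56% higher). With the sort day as a block, the counts were 8 and 15, against 17.3% and 13.7% (8.28% and 7.19% higher). Leaving out sort day 3, chosen after seeing the data, left 0 genes called in cKO cells and 4 in controls, namely Pes1, Nop56, Gnl3 and Rrp1b, while 4.2% of all genes were called in cKO cells and 3.94% in controls (2.28% higher). Libraries whose single omission moved the cKO count by over 1.5 times were replicate 2 of LZ control (3 genes) and DZ cKO (3 genes), replicates 2 and 3 of LZ cKO (1 gene each), and replicates 1 and 4 of DZ cKO (2 genes and 1 gene). For the control count of 7 it was replicate 2 of LZ control (4 genes). With 1 library left out, calls over all genes ran from 5.15% to 8.99% in cKO cells and from 4.64% to 7.49% in controls.

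**Figure D1:**
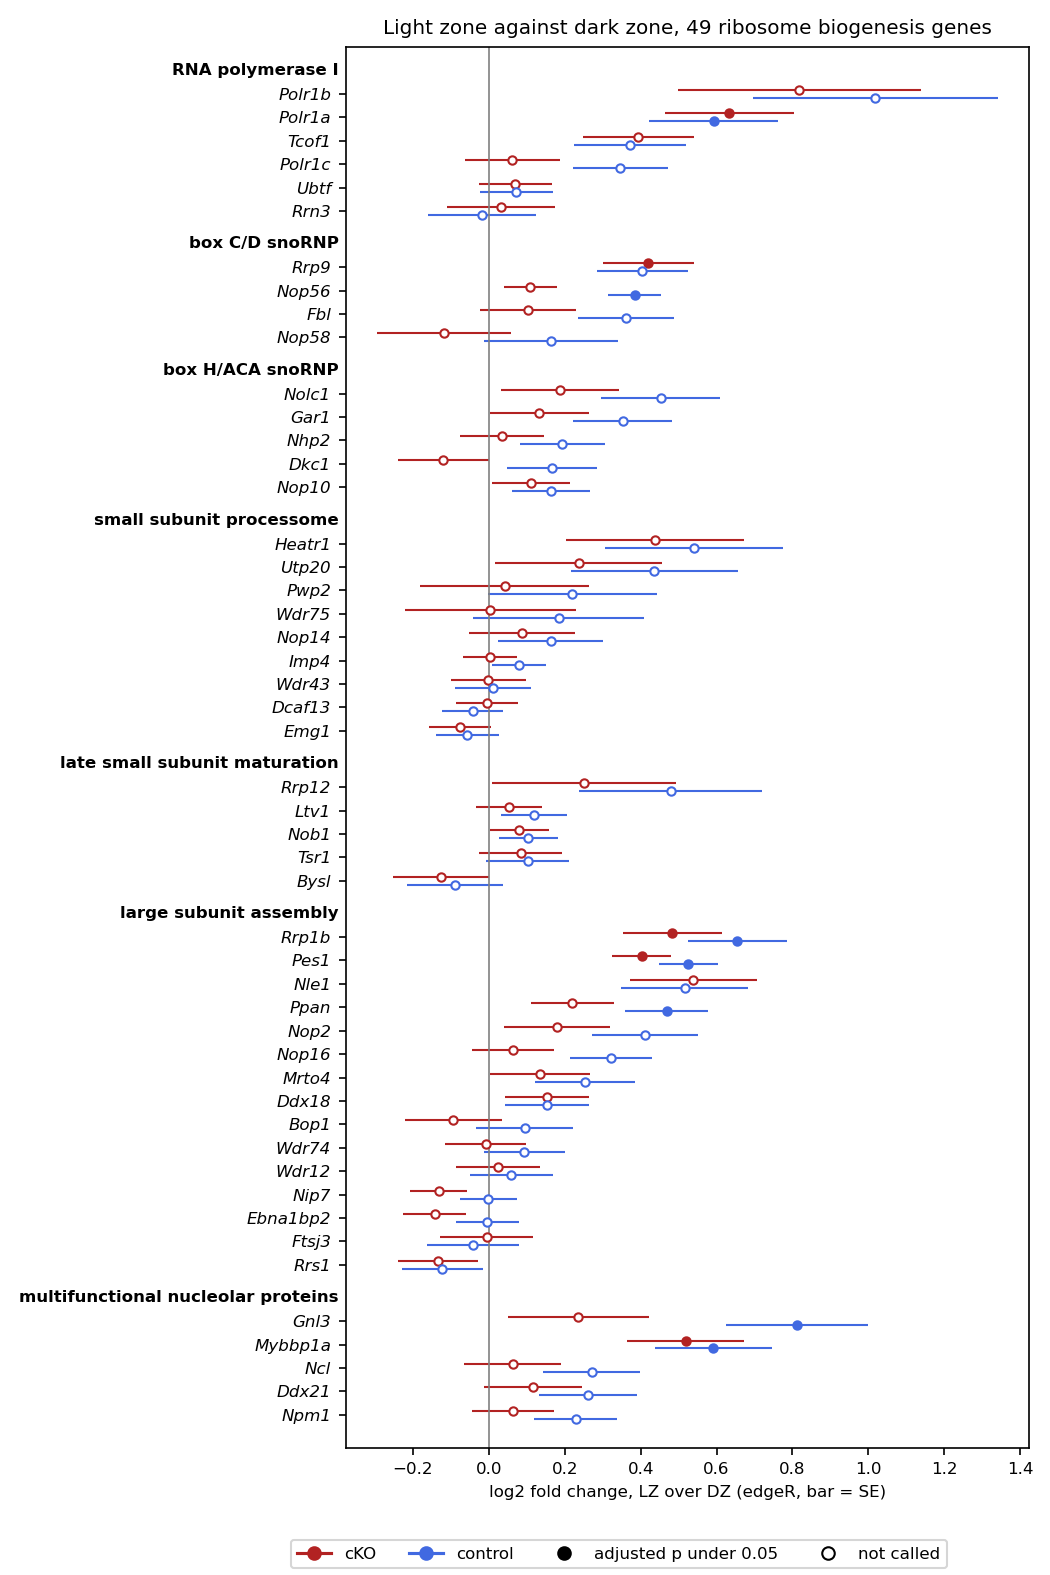
Log2 fold change of each of the 49 genes in the light zone over the dark zone (x axis; points are edgeR estimates, bars their SE), in cKO and control cells, by role. Filled points have an adjusted p under 0.05 (5 genes in cKO, 7 in control cells), and all filled points lie to the right of 0.

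Among the RNA polymerase I factors, Polr1a, the largest catalytic subunit of the enzyme, was called in both genotypes. Polr1a (chr6:71909053-71979435) had 43.5, 59.8, 60.2 and 47.2 CPM in LZ cKO libraries and 37.7, 34.9, 37.2 and 25.8 CPM in DZ cKO libraries. It had 42.5, 63.1, 48.3 and 48.7 CPM in LZ controls and 24.6, 35.3, 35.8 and 38.7 CPM in DZ controls. The zones did not overlap in either genotype. The log2 fold change was 0.63 ± 0.17 in cKO cells (adjusted p = 0.0281) and 0.59 ± 0.17 in controls (adjusted p = 0.0445). The cKO call was lost without LZ cKO replicates 2 or 3 or DZ cKO replicate 4 (adjusted p over all alternatives 0.00508 to 0.409). The control call was lost without LZ control replicates 2 to 4, any DZ control library, LZ cKO replicates 3 or 4 or DZ cKO replicates 1 to 3 (0.0117 to 0.424). Polr1b, the second largest subunit, had the largest zone estimates of all 49 genes, 0.82 ± 0.32 in cKO cells and 1.02 ± 0.32 in controls, with adjusted p of 0.13 and 0.0692; with the pool as a block it was called in both genotypes. Its values spread widely, from 17.1 to 43.1 CPM in DZ cKO libraries and from 9.83 to 25.0 CPM in DZ controls. Tcof1, treacle, which supports that transcription, and Polr1c, a smaller subunit, were not called either (0.39 and 0.06 in cKO cells, 0.37 and 0.35 in controls); with the pool as a block Tcof1 was called in both genotypes (adjusted p = 0.0445 in cKO cells and 0.0463 in controls) and Polr1c in neither. Rrn3 and Ubtf, which load the polymerase at ribosomal DNA, had zone estimates between -0.02 and 0.07 in both genotypes, with adjusted p of at least 0.728.

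Of the box C/D snoRNP genes, Rrp9 was called in cKO cells and Nop56 in controls. With the pool as a block, Rrp9 and Fbl were called in controls as well (adjusted p = 0.0213 and 0.0361), so that 3 of the 4 were. Nop56 (chr2:130274367-130279313), a core scaffold protein, had 219, 216, 225 and 205 CPM in LZ controls, against 166, 154, 173 and 171 CPM in DZ controls. In cKO mice it had 176, 170.4, 186 and 163 CPM in the LZ, against 158, 148, 176 and 162 CPM in the DZ. The zones were apart in controls and overlapped in cKO mice, with log2 fold changes of 0.38 ± 0.07 (adjusted p = 0.00278) in controls and 0.11 ± 0.07 (adjusted p = 0.389) in cKO cells. Rrp9, which binds the U3 snoRNA, had 43.8, 38.3, 43.8 and 35.1 CPM in LZ cKO libraries and 27.1, 31.0, 34.5 and 27.7 CPM in DZ cKO libraries. In controls it had 49.4, 45.9, 44.4 and 40.04 CPM in the LZ and 39.7, 33.9, 28.2 and 34.0 CPM in the DZ. The zones were apart in both genotypes, narrowly so in controls, with estimates of 0.42 ± 0.12 in cKO cells (adjusted p = 0.0387) and 0.40 ± 0.12 in controls (adjusted p = 0.0521). The cKO call of Rrp9 was lost without LZ control replicate 2, LZ cKO replicates 1, 2 or 3 or DZ cKO replicates 1, 2 or 4 (adjusted p over all alternatives 0.00984 to 0.389). Fbl, the methyltransferase fibrillarin, had 47.8, 47.9, 57.8 and 42.4 CPM in LZ cKO libraries and 39.0, 47.3, 56.2 and 39.8 CPM in DZ cKO libraries. In controls it had 53.7, 56.6, 65.0 and 54.1 CPM in the LZ and 48.9, 41.6, 41.0 and 47.1 CPM in the DZ. Its zones were apart in controls alone, and its estimates of 0.10 ± 0.13 and 0.36 ± 0.13 were not called (adjusted p = 0.694 in cKO cells and 0.106 in controls).

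The box H/ACA genes, which serve pseudouridylation, had no call between zones in either genotype. Their estimates ran from -0.12 (Dkc1, the pseudouridine synthase) to 0.19 (Nolc1) in cKO cells and from 0.16 (Nop10) to 0.45 (Nolc1, a nucleolar chaperone of snoRNPs) in controls. With the pool as a block, Gar1 and Nolc1 were called higher in the LZ of controls. The small subunit processome had no call either, with medians of 0.00 in cKO cells and 0.16 in controls and its highest estimates at Heatr1 (0.44 and 0.54). Late small subunit maturation gave no call, and its medians were 0.08 and 0.10.

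Of the 15 genes of large subunit assembly, 2 were called higher in the LZ in cKO cells and 3 in controls. Pes1 (chr11:3963975-3980004), a core of the complex that processes large subunit precursors, had 127, 140.3, 148 and 117 CPM in LZ cKO libraries and 95.6, 103, 102 and 103 CPM in DZ cKO libraries. It had 158, 138, 153 and 157 CPM in LZ controls and 102, 102, 110.0 and 107 CPM in DZ controls. Every LZ library stood above every DZ library of its genotype. The estimates were 0.40 ± 0.08 in cKO cells (adjusted p = 0.00403) and 0.53 ± 0.08 in controls (adjusted p = 0.000547), the lowest adjusted p of the 49 in each. Pes1's partners in that complex, Bop1 and Wdr12, were not called, with estimates of -0.09 and 0.02 in cKO cells and 0.09 and 0.06 in controls.

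Rrp1b, a nucleolar protein of large subunit processing, had 34.5, 40.6, 46.4 and 39.8 CPM in LZ cKO libraries and 23.8, 26.2, 35.8 and 29.6 CPM in DZ cKO libraries. In controls it had 46.0, 44.2, 43.7 and 36.6 CPM in the LZ and 25.7, 30.1, 27.5 and 25.1 CPM in the DZ. The zones overlapped in cKO mice through 1 high DZ library and were apart in controls. Its estimates were 0.48 ± 0.13 (adjusted p = 0.0292) in cKO cells and 0.65 ± 0.13 (adjusted p = 0.00536) in controls. The cKO call was lost without LZ cKO replicates 2 or 3 or DZ cKO replicates 1, 2 or 4 (adjusted p over all alternatives 0.0036 to 0.279). Ppan, a factor of large subunit maturation, was called in controls alone. It had 114, 119, 120.2 and 95.6 CPM in LZ controls and 95.0, 85.3, 67 and 77 CPM in DZ controls, which did not overlap (0.47 ± 0.11, adjusted p = 0.0144; the call was lost without LZ control replicate 2), and in cKO mice 83.8 to 104 CPM in the LZ and 77 to 90.4 CPM in the DZ, which overlapped (0.22 ± 0.11, adjusted p = 0.247). Nle1, a factor of large subunit assembly and the gene with the lowest mean of the 49 (12.0 CPM), had 12.9 to 17.3 CPM in LZ cKO libraries and 9.14 to 11.9 CPM in DZ cKO libraries, and 10.1 to 17.1 CPM in LZ controls and 8.24 to 10.7 CPM in DZ controls. It had estimates of 0.54 ± 0.17 and 0.52 ± 0.17 and missed the threshold in both (adjusted p = 0.0567 in cKO cells and 0.077 in controls). With the pool as a block Nle1 was called in cKO cells (adjusted p = 0.0403), and Nop2 and Nop16 were called in controls (adjusted p = 0.0124 and 0.0424). The lower end of the class held Ebna1bp2 in cKO cells (-0.14) and Rrs1 in controls (-0.12).

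Among the multifunctional nucleolar proteins, Mybbp1a, which binds the transcription factor MYB, was called in both genotypes and Gnl3 in controls. Mybbp1a had 218, 304, 381 and 274 CPM in LZ cKO libraries and 206, 207, 223 and 186 CPM in DZ cKO libraries. It had 258, 325, 355 and 299 CPM in LZ controls and 164, 218, 195 and 244 CPM in DZ controls. Zones overlapped in cKO mice through LZ library 1 and were apart in controls (0.52 ± 0.15, adjusted p = 0.0473, and 0.59 ± 0.15, adjusted p = 0.0276). The cKO call was lost without any DZ cKO library, LZ cKO replicates 2 to 4, LZ control replicates 2 to 4 or DZ control replicates 2 or 3 (adjusted p over all alternatives 0.0114 to 0.487). The control call was lost without LZ control replicates 2 to 4 or DZ control replicates 1 or 3 (0.00397 to 0.261).

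Gnl3, nucleostemin, had 41.9, 55.8, 64.9 and 49.7 CPM in LZ cKO libraries and 37.6, 46.8, 65.1 and 30.9 CPM in DZ cKO libraries. In controls it had 53.1, 57.2, 65.8 and 57.3 CPM in the LZ and 30.7, 32.1, 37.5 and 32.7 CPM in the DZ. The control zones were well apart and the cKO zones overlapped, with estimates of 0.24 ± 0.19 (adjusted p = 0.504) in cKO cells and 0.81 ± 0.19 (adjusted p = 0.0134) in controls. Ncl, nucleolin, the gene with the highest mean of the 49 (790 CPM), had 675, 688, 999 and 742 CPM in LZ cKO libraries and 774, 679, 885 and 632 CPM in DZ cKO libraries. In controls it had 862, 868, 1005 and 852 CPM in the LZ and 679, 724, 759 and 811 CPM in the DZ, which did not overlap. Ncl was not called (0.06 ± 0.13, adjusted p = 0.825 in cKO cells; 0.27 ± 0.13, adjusted p = 0.252 in controls), except in controls with the pool as a block (adjusted p = 0.0445). Npm1, nucleophosmin, an RNA and protein chaperone, had 348 to 447 CPM in LZ cKO libraries, 341 to 466 CPM in DZ cKO libraries, 395 to 491 CPM in LZ controls and 353 to 409 CPM in DZ controls. It was not called in either genotype without a block (0.06 ± 0.11 and 0.23 ± 0.11). In controls it was called with the sort day or the pool as a block (adjusted p = 0.0172 and 0.0213). Npm1 has processed copies in the genome, so its counts are less certain.

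**Figure D2:**
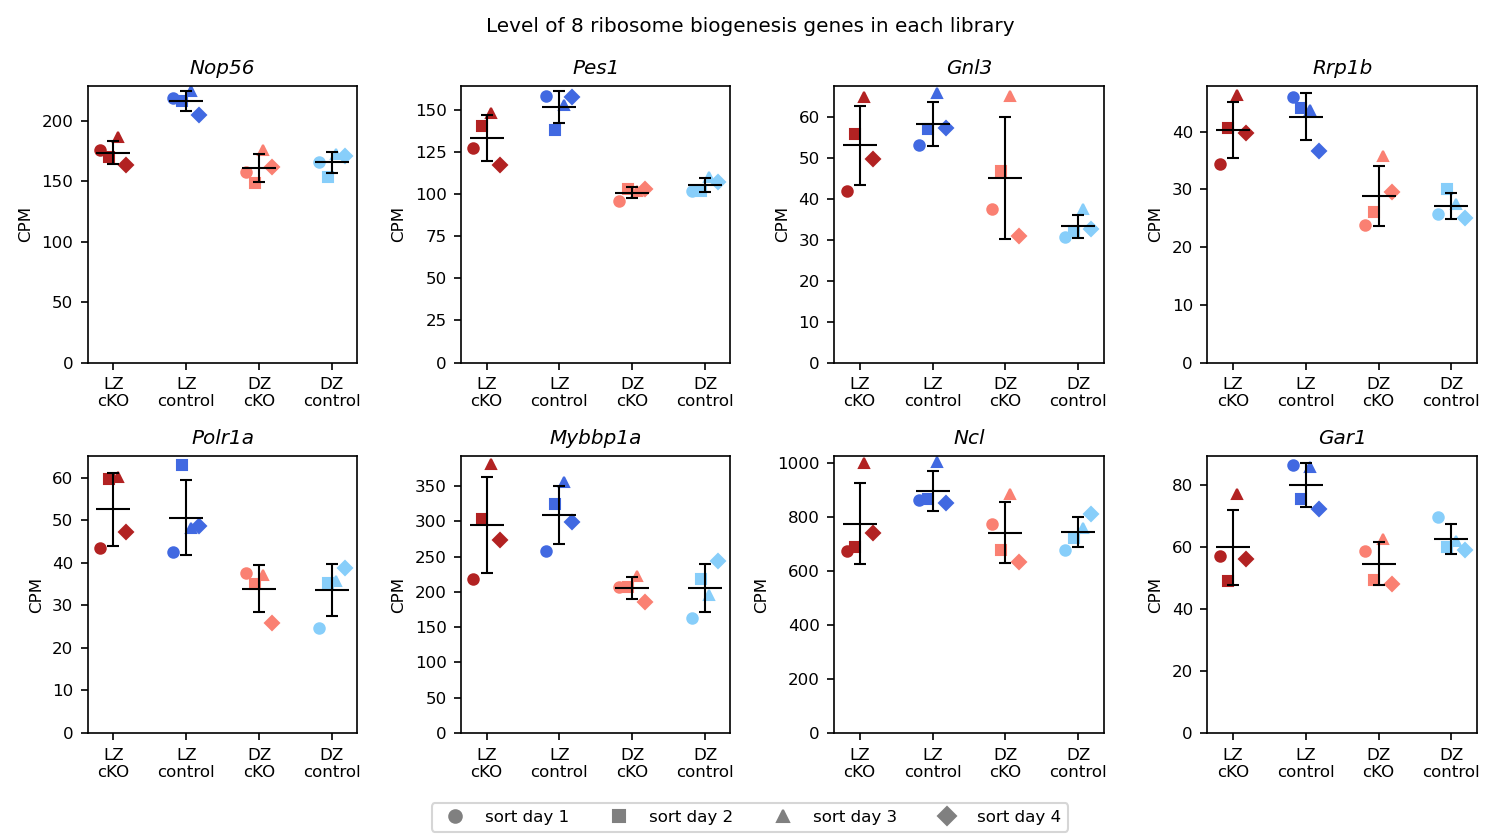
CPM of 8 genes (y axes, each from 0) in each of the 16 libraries, by group (x axis), with symbols for the sort day, a horizontal line for the mean and a bar for the SD (n = 4 per group). Nop56 stands at 205 to 225 CPM in LZ control libraries, above the 148 to 186 CPM of the other 3 groups.

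Without overlap between the zones, 5 of the 49 genes were higher in the LZ in cKO cells, against 7.44% of all genes tested, and 16 (32.7%) in controls, against 7.49%. None was lower without overlap in either genotype, where 6.87% and 6.83% of all genes were. Paired by pool, 15 genes (30.6%) were higher in the LZ on all 4 sort days in cKO cells and 26 (53.1%) in controls, against 18.1% and 17.8% of all genes. Myc itself had 116, 134, 165 and 102 CPM in LZ cKO libraries and 79.7, 67.3, 77.2 and 49.5 CPM in DZ cKO libraries. It had 132, 136, 145 and 114 CPM in LZ controls and 54.3, 61.4, 60.1 and 48.7 CPM in DZ controls. Myc was higher in the LZ in both genotypes, without overlap (log2 fold change 0.92 ± 0.16 in cKO cells, adjusted p = 0.00172, and 1.23 ± 0.16 in controls, adjusted p = 0.000183).

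Among all genes tested, 4.91% were called higher and 4.18% lower in the LZ of cKO mice, and 4.16% and 3.33% in the LZ of controls. Of 117 further pathway genes measured, smaller shares were called. In the LZ of cKO mice 1 was called higher and 1 lower, and in the LZ of controls 3 higher and 1 lower. In cKO cells these were Xrn2, a ribonuclease (0.37 ± 0.10, adjusted p = 0.0258), and Eif6, which keeps the large subunit from joining early (-0.29 ± 0.08, adjusted p = 0.0449). In controls they were Noc2l (0.60 ± 0.14), Noc3l (0.67 ± 0.19) and Wdr46 (0.32 ± 0.08), all factors of subunit assembly, and Polr1d, a subunit shared by RNA polymerases I and III (-0.31 ± 0.08). The 4 adjusted p-values in controls were 0.0115, 0.0464, 0.0281 and 0.0242. With each of the 16 libraries left out in turn, the call was lost 0 times for Noc2l, 4 for Xrn2 (LZ cKO replicates 2 and 3, DZ cKO replicates 1 and 4), 6 for Wdr46 (LZ control replicates 2 to 4, DZ control replicates 1 to 3) and 7 for Polr1d (all LZ control libraries, DZ control replicates 1, 3 and 4). It was lost 10 times for Noc3l (LZ control replicates 1, 3 and 4, DZ control replicates 1, 2 and 4, and replicates 2 and 4 of LZ cKO and DZ cKO) and 13 times for Eif6, which kept it only without LZ control replicate 2 or DZ control replicates 1 or 2. With the pool as a block, 7 of the 117 were called higher and 6 lower in the LZ of cKO mice, and 13 higher and 2 lower in the LZ of controls. The shares of all genes with that block were 8.8% higher and 8.99% lower in cKO cells, and 7.56% and 6.28% in controls. The median over the 117 was 0.01 in cKO cells and 0.07 in controls, against 0.08 and 0.22 for the 49.

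Summed markers of other cell types differed between the zones as well. The 6 naive or memory B markers summed to 1448 to 2326 CPM in LZ cKO libraries against 450.3 to 792 CPM in DZ cKO libraries, and to 1269 to 1772 CPM in LZ controls against 368 to 584 CPM in DZ controls; 3 were called higher in the LZ in each genotype. The 6 plasma cell markers summed to 1151 to 2125 CPM in LZ cKO libraries against 2279 to 10679 CPM in DZ cKO libraries, and to 1233 to 1992 CPM in LZ controls against 2594 to 7581 CPM in DZ controls. The 8 T cell markers summed to 160.4 to 412 CPM in LZ cKO libraries against 91.9 to 211 CPM in DZ cKO libraries, and to 273 to 462 CPM in LZ controls against 115 to 232 CPM in DZ controls. Of the plasma cell markers 1 was called lower in the LZ of cKO mice and none in controls. Of the T cell markers 1 was called higher in the LZ in each genotype. In every group single genes gave the largest part of the sums, namely Fcer2a (naive or memory B), Jchain (plasma cell) and Lck (T cell). No marker of these 3 lists was at 0 in all libraries of a group. Their part in the zone differences was not tested.

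Whether the zone difference depended on genotype was tested as an interaction, and no gene was called. Of all genes tested, 0 (0%) passed in edgeR at the adjusted threshold, with 466 genes (2.95%), 2 of the 49 among them, at an unadjusted p under 0.05. DESeq2 called 6 genes (0.0242%) and none of the 49, and edgeR with the sort-day block called 0. The 2 were Nop56 (interaction -0.27 ± 0.10, unadjusted p = 0.0138) and Gnl3 (-0.58 ± 0.26, unadjusted p = 0.0441). The adjusted p rounded to 1 for both. The interaction estimate was above 0 for 8 of the 49 genes and below 0 for 41, with a median of -0.12, while 49% of all genes tested were above 0. The median was -0.0425 without DZ cKO replicate 3 and -0.0675 and -0.0731 without LZ cKO replicates 1 and 4, and -0.201 without LZ cKO replicate 3. The fits share all 16 libraries, so this describes them and is no test of the 49 as a group.

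In the light zone, Nop56 was the 1 gene of the 49 called between genotypes, and it was lower in cKO cells. It had 176, 170.4, 186 and 163 CPM in LZ cKO libraries, against 219, 216, 225 and 205 CPM in LZ controls. All 4 cKO libraries stood below all 4 control libraries, and the log2 fold change was -0.32 ± 0.07 (adjusted p = 0.0424). Over all genes tested, 1.08% were called and 0.393% called lower. The call was lost without any 1 of the 4 LZ control libraries, without LZ cKO replicates 1, 2 or 4, without DZ control replicates 1, 3 or 4 and without DZ cKO replicates 1 or 4, while the estimate stayed between -0.35 and -0.29 over all 26 alternatives (adjusted p between 0.000561 and 0.445). The median of the 49 was -0.13, against 0.02 for all genes tested, and 11 of the 49 estimates were above 0, against 52.5% of all genes, and 38 below. Without LZ cKO replicates 1, 3 and 4 in turn that median was -0.0832, -0.218 and -0.0783.

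**Figure D3:**
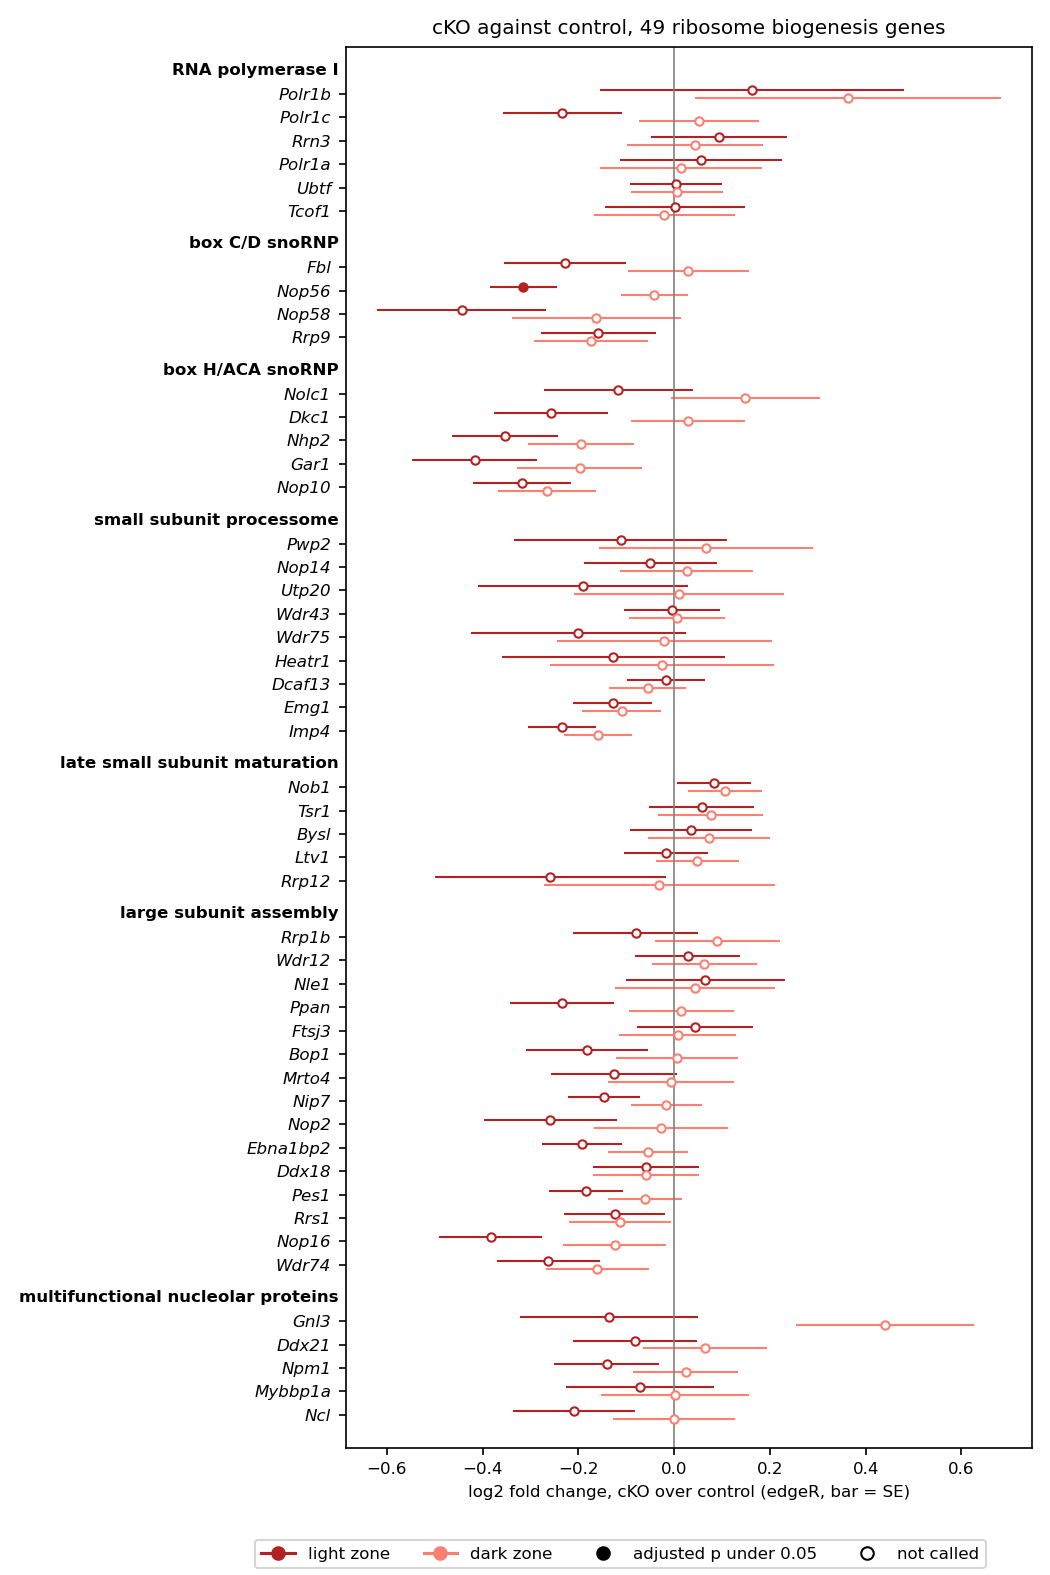
Log2 fold change of each of the 49 genes in cKO over control cells (x axis; points are edgeR estimates, bars their SE), in the light and the dark zone, by role. The 1 filled point, with an adjusted p under 0.05, is Nop56 in the light zone, and the box H/ACA genes lie below 0 in the light zone.

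With sort day as a block, which the labels' shared sort days call for, 6 genes were called lower in LZ cKO cells and none higher, against 5.5% of all genes called (2.77% lower and 2.72% higher). They were Nop56 (adjusted p = 0.00641), the box H/ACA genes Gar1, Nhp2, Nop10 and Dkc1 (adjusted p = 0.0186, 0.0192, 0.0243 and 0.0408), and Nop16, of large subunit assembly (adjusted p = 0.0265). Thus 4 of the 5 box H/ACA genes were among them, and Nolc1 was not (adjusted p = 0.648 with the block). Without the block none of the 5 was called (lowest adjusted p = 0.15), and the class as a whole was not tested. DESeq2, without the block, called 3 lower, Nop56, Nop16 and Imp4, against 1.89% of all genes lower and 4.57% in either direction.

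Gar1, a core protein of the H/ACA particle, had 57.3, 49.2, 77.3 and 56.2 CPM in LZ cKO libraries, against 86.6, 75.7, 85.9 and 72.2 CPM in LZ controls. The groups overlapped through the cKO library of day 3, and without a block the estimate was -0.42 ± 0.13 (adjusted p = 0.15). Nhp2, which binds the H/ACA RNA, had 89.4, 79.7, 105 and 86.2 CPM in LZ cKO libraries and 116, 102, 128 and 114 CPM in LZ controls, with day 3 in cKO again above the lowest control. Nop10, a small protein of the same particle, had 108, 93.9, 111 and 92.1 CPM in LZ cKO libraries and 127, 115, 134 and 129 CPM in LZ controls, without overlap. Dkc1 had 125, 121, 179.9 and 136 CPM in LZ cKO libraries and 155, 161, 194 and 162 CPM in LZ controls, with 1 cKO library inside the control range. Nop16 had 63.0, 52.1, 65.3 and 57.3 CPM in LZ cKO libraries and 80.5, 71.3, 77.3 and 81.0 CPM in LZ controls, without overlap.

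By role, the median LZ genotype estimate was -0.32 for the box H/ACA genes and -0.27 for the box C/D genes, against 0.03 for the RNA polymerase I factors and 0.04 for late small subunit maturation. It was -0.13 for the processome, -0.15 for large subunit assembly and -0.14 for the multifunctional proteins. The lowest estimate was that of Nop58, the box C/D partner of Nop56, at -0.44 ± 0.18 (adjusted p = 0.278). Nop58 had 80.2, 102, 157 and 125 CPM in LZ cKO libraries against 165, 143, 176 and 147 CPM in LZ controls, and the groups overlapped on day 3. The highest was Polr1b, at 0.16 ± 0.32. Without overlap, 4 of the 49 were lower in LZ cKO libraries (Nop56, Nop10, Imp4 and Nop16), against 4.12% of all genes, and none was higher, against 4.53%. On all 4 sort days, 21 (42.9%) were lower in LZ cKO cells, against 15.1% of all genes, and 1 was higher, against 14.8%.

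Of the 117 further pathway genes, none was called in the LZ by edgeR without a block, and 85 had estimates below 0 (median -0.11). With sort day as a block, 6 were called lower (Znrd1, Utp18, Exosc7, Exosc3, Wdr18 and Ruvbl1), against 2.77% of all genes. Their unblocked estimates were between -0.36 and -0.29. Myc did not pass the test between genotypes (-0.03 ± 0.16, adjusted p = 0.97). In the same comparison all 10 macrophage markers had estimates above 0, none called, and summed to 78.2 to 487 CPM in LZ cKO libraries against 23.3 to 390 CPM in LZ controls. The 5 dendritic markers, 4 of them above 0, summed to 119.6 to 155 CPM against 54.4 to 78.2 CPM, and 1 of them was called. Flt3 alone gave most of the dendritic sums (means of 125 CPM in LZ cKO and 56.7 CPM in LZ control libraries). Lyz2 gave most of the macrophage sums (means of 145 CPM in LZ cKO and 79.2 CPM in LZ control libraries). The 6 naive or memory B markers, 5 of them above 0 and 1 called higher, summed to 1448 to 2326 CPM in LZ cKO libraries against 1269 to 1772 CPM in LZ controls. Of 8 T cell markers 7 were above 0, with sums of 160.4 to 412 CPM in LZ cKO libraries and 273 to 462 CPM in LZ controls, and all 4 NK markers were (13.1 to 53.4 CPM and 3.53 to 38.9 CPM). The neutrophil markers summed to 0 to 38.6 CPM in LZ cKO libraries, with Ly6g at 0 in all 4, and to 0 to 12.5 CPM in LZ controls, with Retnlg at 0 in all 4. None of the T cell, NK and neutrophil markers was called. The part of these lists in the result was not tested.

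In the dark zone none of the 49 genes was called between genotypes, where 0.627% of all genes tested were. At an unadjusted p under 0.05 there were 3, against 11.4% of all genes; DESeq2 and edgeR with the sort-day block called 0 of the 49, against 3.04% and 3.27% of all genes. The median estimate was 0.01, with 26 estimates above 0 (53.1%, against 51.7% of all genes) and 23 below. The range ran from Nop10 (-0.27 ± 0.10, adjusted p = 0.302) to Gnl3 (0.44 ± 0.19, adjusted p = 0.367). Nop56 had 158, 148, 176 and 162 CPM in DZ cKO libraries, against 166, 154, 173 and 171 CPM in DZ controls, and the groups overlapped (-0.04 ± 0.07). The box H/ACA genes again had the lowest median of the roles, -0.19. Among the further pathway genes 1 was called lower, Twistnb, a subunit of RNA polymerase I (-0.42 ± 0.09, adjusted p = 0.0461). That call was kept in 3 of the 16 fits that leave out 1 library (LZ control replicates 1 and 3, DZ cKO replicate 3) and missed in 19 of all 26 alternatives, with adjusted p between 0.00143 and 0.627. With the sort-day block 3 further pathway genes were called lower (Twistnb, Utp18 and Exosc5), against 1.37% of all genes. All 10 macrophage markers had estimates above 0 in the DZ too, with none called, and summed to 43.5 to 1223 CPM in DZ cKO libraries against 14.7 to 403 CPM in DZ controls. Estimates were above 0 for all 6 plasma cell, 5 dendritic and 4 NK markers, for 7 of 8 T cell and for 5 of 6 naive or memory B markers as well, and for the 4 neutrophil markers tested, with none called. The dendritic markers summed to 78.4 to 115 CPM in DZ cKO libraries against 62.6 to 74.5 CPM in DZ controls, and the NK markers to 16.9 to 52.3 CPM against 2.91 to 40.4 CPM. Flt3 again gave most of the dendritic sums (means of 80.1 CPM in DZ cKO and 58.7 CPM in DZ control libraries). Lyz2 gave most of the macrophage sums (means of 383 CPM in DZ cKO and 82.5 CPM in DZ control libraries). The part of these lists was not tested.

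The level of the 49 genes also differed by sort day within each group. Their mean log2 CPM was highest on day 3 in LZ cKO (6.57), LZ control (6.55) and DZ cKO libraries (6.38), and on day 4 in DZ controls (6.26), where day 3 had 6.23. Day 3 held the highest library for 41 of the 49 genes in LZ cKO, 26 in LZ control, 37 in DZ cKO and 17 in DZ control. These counts were not made over all genes tested, so they do not show whether the rise is particular to the 49. Mean levels in LZ cKO libraries on days 1, 2 and 4 were 6.20, 6.30 and 6.22, below the 6.42, 6.45 and 6.44 of LZ controls of the same days. Day by day, the mean difference of LZ cKO from LZ control was -0.22, -0.15, 0.02 and -0.21, so that it was near 0 on day 3 alone. Without LZ cKO replicate 3, Nop56 and Gar1 were called lower, against 0.842% of all genes called (0.258% lower), and the median of the 49 was -0.22. Without all 4 libraries of day 3 the median was -0.20 and none of the 49 was called, against 0.387% of all genes. In the DZ the difference of cKO from control was -0.01, -0.03, 0.15 and -0.14, with both signs. The LZ over DZ difference kept 1 sign on all days, at 0.09, 0.14, 0.19 and 0.10 in cKO cells and 0.30, 0.27, 0.32 and 0.18 in controls. Day 3 libraries held 30293195 to 31877708 counts and 0.578% to 0.782% mitochondrial counts, both within the range of the others. Days 1 and 2 were males and days 3 and 4 females, and the part of sex in these levels was not tested.

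**Figure D4:**
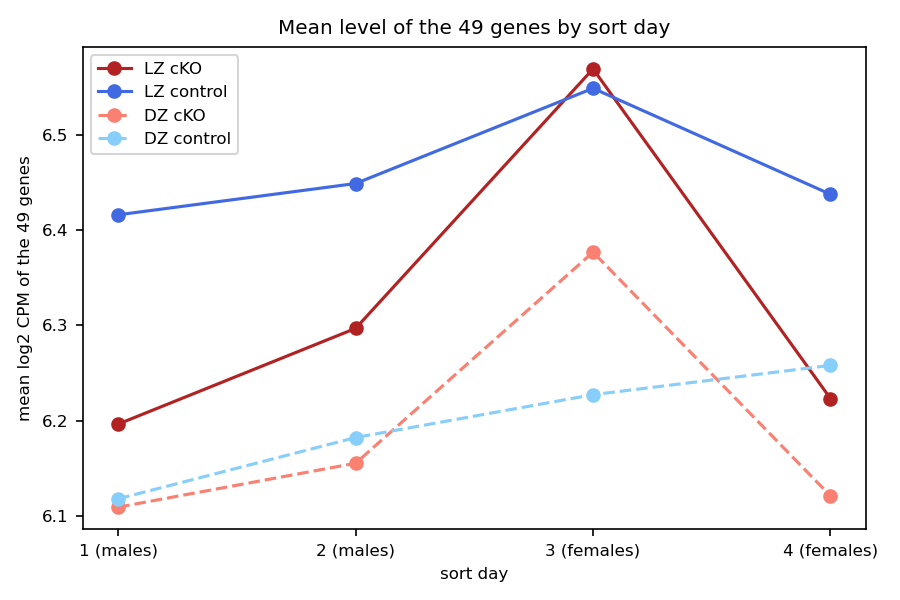
Mean log2 CPM over the 49 genes (y axis) in each library by sort day (x axis), 1 point per library, with lines joining the libraries of a group. LZ cKO libraries lie below LZ controls on days 1, 2 and 4 and meet them on day 3 (6.57 and 6.55).

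PTBP1 crosslink sites in these genes were counted in the iCLIP lists from cultured LPS B cells, which are not germinal centre cells. The pooled list held 244659 sites and the replicate lists 6211 to 45505. Of the 42 genes with a known strand, 27 (64.3%) held at least 1 pooled site in the annotated span, against 49.3% of the 10430 genes tested with strand, and they held 344 sites. Their density was 0.477 sites per kilobase of span, against 0.371 over those tested genes. Of the 344 sites, 204 lay in the 8 genes that hold snoRNA genes, described below. The other 34 genes, with 140 sites, had a density below that of the tested genes. The list depends on how much RNA a gene makes, which these counts do not correct. Most sites were in Ncl (55), Nop58 (50), Wdr43 (36), Nop56 (32), Ddx21 (24), an RNA helicase, and Gnl3 (22). Nop58 had a site in all 5 replicate lists, Wdr43 in 4, Ncl, Nop56 and Gnl3 in 2 each and Ddx21 in 1. Some genes with pooled sites, such as Wdr12 (13), Ubtf (12) and Heatr1 (10), had none in any replicate list. Emg1 and Mrto4 had sites in 1 replicate list each and 0 in the pooled list.

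The genes of this set often host snoRNA genes in their introns. RefSeq places 21 snoRNA genes within 8 of the 49 genes (16.3%), against 2.13% of the 14333 tested genes with a RefSeq match. Nop56 holds 5, Nop58 4, Wdr43 and Gnl3 3 each, Ncl and Ppan 2 each, and Dkc1 and Tsr1 1 each. These 8 hosts held 204 of the 344 pooled PTBP1 sites, with a median of 27 per gene, against a median of 2 in the other 34 genes with a known strand. Of the 204, 70 (34.3%) lay inside an annotated snoRNA gene, although snoRNA genes make up 1.31% of the hosts' span. In Nop56, 31 of 32 sites did, 11 of them in Snord57. In Gnl3 it was 9 of 22, all in Snord69. In Nop58 it was 13 of 50, 7 of them in Snord11, and in Ncl it was 8 of 55, 4 of them in Snord82. In Wdr43 it was 7 of 36 and in Ppan 2 of 6, while the 3 sites of Tsr1 lay outside and Dkc1 had none. Whether the crosslinked RNA was the host's transcript or the snoRNA cannot be told from a position. No test was made of sites against expression, and 15 of the 49 genes, Nop56, Polr1a, Gnl3, Mybbp1a, Nhp2 and Dkc1 among them, overlap another annotated gene, whose reads an unstranded count could not separate.

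**Figure D5:**
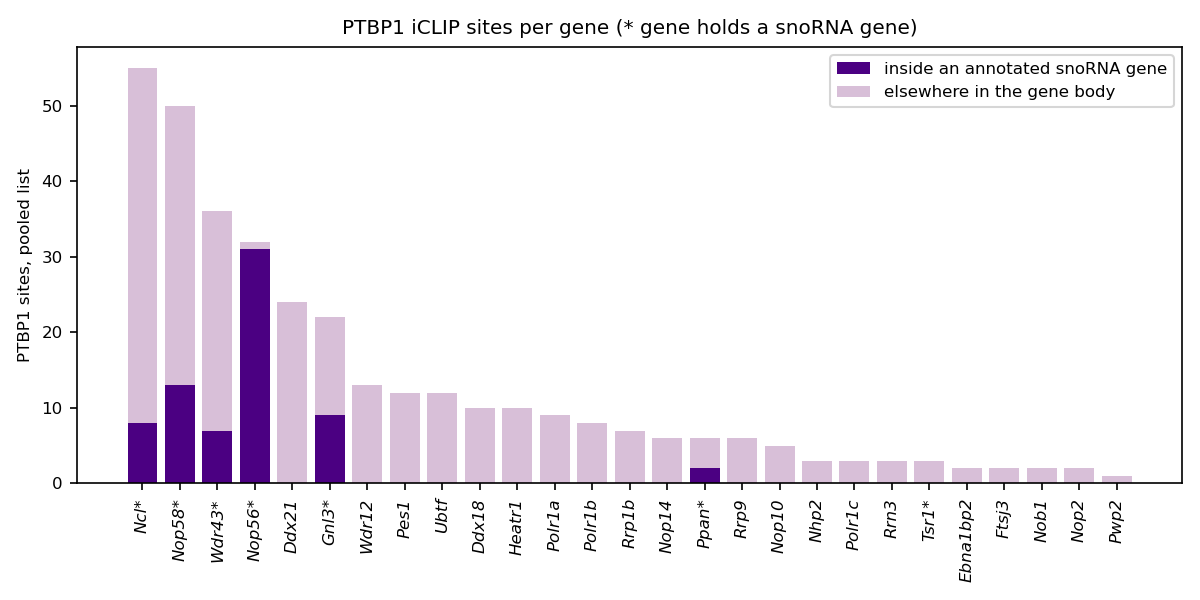
Number of PTBP1 iCLIP sites of the pooled list (y axis, bars from 0) in each of the 27 genes that had any (x axis), split into sites inside an annotated snoRNA gene and the rest, with an asterisk for genes that hold a snoRNA gene. Nop56 has 31 of its 32 sites inside snoRNA genes, and Ddx21 has the most sites (24) of the genes that hold none.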

How the data were processed

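Raw counts per Ensembl gene were deposited for 16 mRNA libraries; Trim Galore 0.4.2, HISAT2 and HTSeq are named with GRCm38 per the submitters' processing notes. The annotation release and strand setting were not given in the sources used here. RNA (2 ng) was made into cDNA from poly(A) transcripts, and 0.5 ng of cDNA into libraries with 8 PCR cycles, per the labels' protocols. For iCLIP, each deposited list gives a score, a signed cDNA count per position; per the file headers, positions on mm10 were kept at FDR under 0.05, and the pooled list sums the 5 replicates. Summary lines (41.4% to 49.8% of all entries) were left out. Gene symbols came from a reference table for 47224 of 47729 identifiers.

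Genes passing filterByExpr (minimum count 10) were fitted on all 16 libraries by edgeR 4.0.16 (TMM, robust quasi-likelihood, R 4.3.3; Benjamini-Hochberg; common biological coefficient of variation 40.3%). The edgeR fit without a block was checked on simulated counts. Those libraries were independent and differed less from each other than the common coefficient given here. That check therefore does not cover the pairing or the spread of these data. Alternatives were RLE and upper-quartile scaling, no filter or a minimum of 50, DESeq2 1.42.0, 2 groups at a time, sort-day and pool blocks, each sex alone, and each library left out. P-values of fits without a block measure the spread between libraries of a group and treat the LZ and DZ libraries of a pool as independent. Those of fits with a block measure the spread left after sort day or pool. Pairing comes from the labels (same pool, same sort day); same-number libraries' deviations correlated at 0.0944 to 0.39. Replicate libraries of a group differed beyond counting noise. The 49 genes and all lists were chosen with earlier results of these data known, so no p is given for a list. Genes were named by a rule: up to 10 called members per comparison by size of change, the highest and lowest mean, 5 representatives, 4 check genes, and up to 4 further pathway genes called per comparison; Polr1b, Nle1, Nop58, Imp4 and the genes called under a block were added after their values were seen. CPM (counts over the TMM-scaled library total) are not per length, so levels are not compared between genes.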

Additional observations from a re-analysis of the deposited data

Results flagged for a closer look

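In 52 groups of 4 libraries (12 of the named genes and the mean of all 49, in 4 groups each), 2 had a library standing far from the other 3, by Dixon's ratio of the gap to the range. Chance gives about 1 in 20. Not every gene given above by library was screened. Ncl in LZ control replicate 3 was highest, at 1005.12 CPM, against 862, 868 and 852 CPM in replicates 1, 2 and 4. Pes1 in DZ cKO replicate 1 was lowest, at 95.6232 CPM, against 103, 102 and 103 CPM in replicates 2, 3 and 4.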

How the results depend on the processing

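The number of the 49 genes called in LZ cKO against LZ control (1) was 6 with the sort-day replicate block, 3 with DESeq2, 0 with no filter, with the 2 groups alone and within males or females, and 0 to 2 with a library or sort day 3 left out. For LZ against DZ in cKO cells (5) it was 8 with the sort-day or pool replicate block, 3 with no filter, 1 with the 2 groups alone, 0 within males or females, and 0 to 6 with libraries left out; in controls (7) it was 15 and 17 with these blocks, 12 with DESeq2, 0 within males or females, and 4 to 9 with libraries left out. Within 1 sex each group has 2 libraries. The cause of these changes was not tested. RLE and upper-quartile scaling and a minimum count of 50 kept these counts at 1, 5 and 7 to 8. The DZ genotype and interaction counts were 0 under all 26 alternatives each, the blocks included.

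The median of the 49 for LZ against DZ in cKO cells (0.08) was 0.17 in males, 0.0573 in females and 0.0212 to 0.167 with libraries left out; the interaction median (-0.12) was -0.15 in males, -0.15 in females and -0.201 to -0.0425 with libraries left out. Medians for the LZ genotype (-0.22 to -0.08), DZ genotype (-0.07 to 0.03) and control zone comparison (0.18 to 0.25) moved by less than the spread between sort days, and no called direction reversed. Leaving out all of sort day 3 was chosen after seeing the data.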
